A study of Homo sapiens with 18 samples.

Results

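V5-tagged EHMT1 carrying arginine in place of a single lysine (the K451R mutant) was compared with the tagged wild-type protein (WT) by the places each occupied on chromatin. EHMT1, also called GLP, is a lysine methyltransferase that works with its partner EHMT2 (G9a) and places mono- and dimethylation on lysine 9 of histone H3. H3K9me2 is a mark of silent chromatin. REST, a zinc finger repressor that silences neuronal genes outside neurons, recruits G9a to its DNA element, RE1.

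All peaks of the K451R V5 list (860) and of the WT V5 list (652) were taken, which gave 1512 of the 22458 regions in the 9 lists of the series. Both groups were stable lines of LNCaP, a human prostate cancer cell line that responds to androgen. The tagged protein was expressed from a lentiviral doxycycline-inducible vector after puromycin selection, and the cells received 0.5 µg/ml doxycycline for 2 days before precipitation with anti-V5. The lines still carried their own untagged EHMT1. Each group had 2 replicates but 1 peak list, and whether a list came from both replicates or from 1 is not known. No spread between replicates could be measured, and every interval below covers counting error only. The call of a peak in 1 list and not in the other is therefore not shown to be a difference between the proteins.

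The K451R list was the deeper of the pair. The number of reads behind a list, estimated from its genome-wide background, was 14.1 M (M, mega) for K451R and 8.84 M for WT, a ratio of 1.60, while the ratio of peak numbers was 1.32. The lowest −log10 p called was 5.48 in the K451R list and 6.57 in the WT list. The lowest pileup, which is the number of reads stacked at a summit, was 7 in both, and the highest was 200 in both. The K451R peaks covered 157.522 kb and the WT peaks 116.418 kb.

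Most WT places were also in the K451R list. Peaks that overlapped by at least 1 bp were counted as shared, which held for 598 of 652 WT peaks (91.7%, 95% Wilson interval 89.4% to 93.6%) and for 588 of 860 K451R peaks (68.4%, 65.2% to 71.4%). This left 272 K451R-only and 54 WT-only peaks. With equal numbers of peaks, taking the 652 K451R peaks of highest −log10 p, the unshared peaks numbered 121 in the K451R list and 109 in the WT list. Of the 272 K451R-only peaks, 67 lay within 1 kb of a WT peak and 159 within 10 kb.

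**Figure D1:**
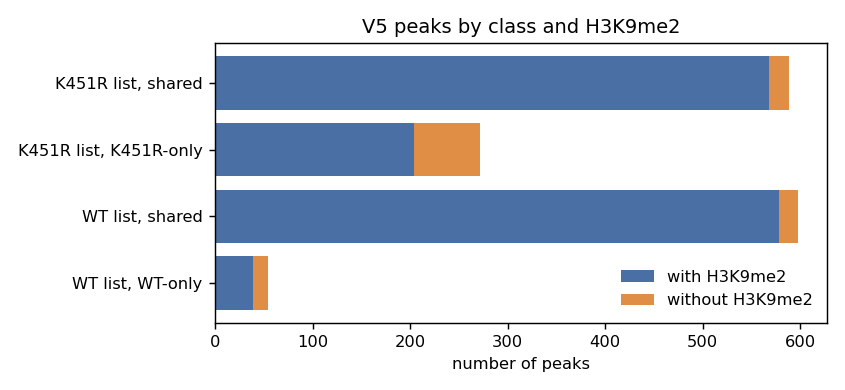
Number of V5 peaks (horizontal axis) in each class of the K451R and WT lists, split by overlap with any of the 4 H3K9me2 lists. Of the K451R peaks, 588 were shared and 272 were not, and 68 of the latter had no H3K9me2 peak.

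A peak in any of the 4 H3K9me2 lists was found at 568 of 588 shared K451R peaks (96.6%) and at 204 of 272 K451R-only peaks (75%). The difference was 21.6 percentage points (95% Newcombe interval 16.5 to 27.2). It was 13.6 points (7.99 to 21.2) with equal numbers of peaks and 9.16 points (5.18 to 14.4) among peaks with a −log10 q of at least 10. Among WT-only peaks the count was 39 of 54 (72.2%). Shared K451R peaks had H3K9me2 in all 4 lists at 459 places, whereas 50 of the K451R-only peaks did. The K451R-only peaks overlapped the H3K9me2 list of the K451R line at 182 places (66.9%) and that of the WT line at 104 places (38.2%). The WT-only peaks had the same tilt, with 33 places (61.1%) in the list of the K451R line and 17 (31.5%) in that of the WT line. Those H3K9me2 lists held 1256 and 784 peaks, from an estimated 27.6 M and 17.9 M reads, so that depth and line cannot be told apart. Among the 68 K451R-only peaks without H3K9me2, 36 overlapped a V5 peak of the K450RK451R double mutant and 30 a peak of untagged EHMT1 in parental cells. The double mutant list held 14799 peaks. In 23 of the 68, no other list had a peak. Of the 15 WT-only peaks without H3K9me2, 9 overlapped the double mutant list, 6 the untagged EHMT1 list and 5 no other list. Over all K451R peaks, 91.5% overlapped the double mutant list and 90.5% the untagged EHMT1 list.

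At shared places the tagged proteins were compared by pileup per M estimated reads. The median K451R to WT ratio over 605 overlapping pairs was 0.793 (95% interval of the median 0.777 to 0.807), with 517 pairs below 1 and 88 above. Among pairs with pileups under 100 in both lists the median was 0.806. A pair had to be called in both lists, and the lowest pileup of 7 reads is a higher value per M in the shallower WT list. Places with low WT values are thus missing, which can lower the ratio. No pileup exceeded 200, and a pair with 200 reads in both lists had a ratio of 0.626, the factor between the read numbers. Whether the K451R protein occupied shared places less was not tested. For single pairs, with no correction for their number, the 95% binomial interval of the ratio lay below 1 in 93 and above 1 in 1. That pair lay near DGCR6 on chromosome 22 (hg19 chr22:18883689-18884147), with 65 reads in the K451R list and 22 in the WT list and a ratio of 1.85 (1.12 to 3.15). At the 20 pairs without H3K9me2 the median ratio was 0.881 (0.765 to 0.952).

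**Figure D2:**
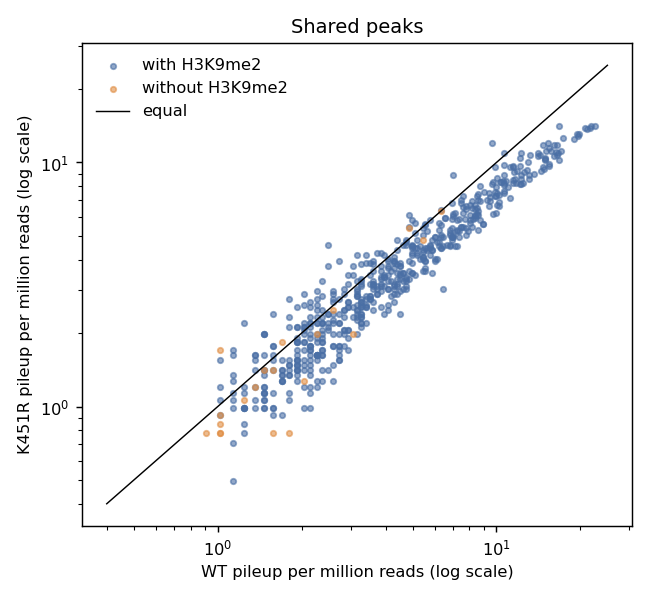
Pileup per M estimated reads of the WT list (horizontal, log scale) and of the K451R list (vertical, log scale) at 605 shared pairs, coloured by overlap with H3K9me2. Most points, 517, lie below the line of equal values.

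K451R-only peaks had fewer reads at the summit than shared ones. Their median pileup was 19 reads against 44 at shared K451R peaks, and the median of WT-only peaks was 15.5 against 34 at shared WT peaks. When K451R pileups were scaled to the WT read number, the median was 11.9 reads for K451R-only peaks and 27.5 for shared peaks. Of the K451R-only peaks, 234 of 272 (86.0%, 81.4% to 89.6%) then still reached 7 reads, the lowest pileup called in the WT list. Judged by −log10 p with the background scaled as well, a rule added after seeing the data, 207 of 272 (76.1%, 70.7% to 80.8%) reached the lowest WT value.

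**Figure D3:**
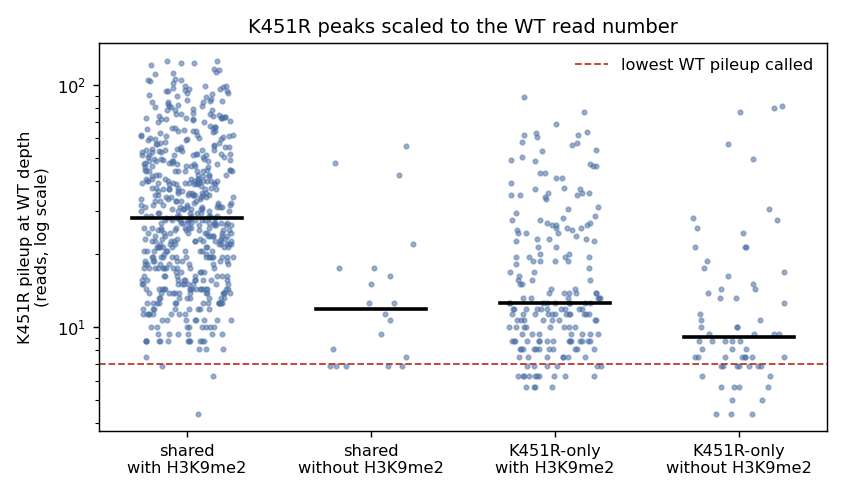
Pileup of K451R peaks in reads, scaled to the WT read number (vertical, log scale), by class and H3K9me2. Black bars are medians, and the dashed line is the lowest pileup called in the WT list, 7 reads. K451R-only peaks lie nearer to that line than shared peaks.

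The peaks lay mainly in repeated DNA near centromeres and other assembly gaps. No input or control precipitation is among the samples of the series. Binding or the mark therefore cannot be told apart at these peaks from signal that does not depend on the antibody. Among nuclear peaks, 479 of 584 shared K451R peaks (82.0%) and 207 of 269 K451R-only peaks (77.0%) had a summit within 1 Mb of an assembly gap of at least 10 kb, while 11.05% of sequenced bases lie that near. A repeat period as long as the alpha satellite unit of human centromeres was seen at 274 shared peaks (46.9%) and at 104 K451R-only peaks (38.7%). It was called where at least 50% of the bases within 500 bases of the summit equalled the base 1 unit length away, with 2 positions of play either side. A period of 5 bases, as in the GGAAT satellite, was seen at 107 shared (18.3%) and 44 K451R-only peaks (16.4%). The play allowed for the longer period takes in a multiple of 5 bases, so a 5-base repeat can meet both rules. The counts of the 2 periods can therefore overlap, and how many peaks met both was not counted. At a K451R-only peak near CWH43, the share of equal bases was 0.736 for the longer period and 0.748 for the shorter. Of 28580 windows spaced evenly over the genome, 0.220% had the long period and 0.0490% the short one. Among K451R-only peaks without H3K9me2 the shares were lower, with 38 of 66 (57.6%) near a gap and 17 (25.8%) with the long period. No stretch of 51 bases in the summit window was unique in the genome at 39 of 268 K451R-only peaks and 72 of 582 shared peaks, so that reads there could have come from another copy.

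A K451R-only peak with H3K9me2 shows each kind of repeat. The first is 1 unit length at a summit on chromosome X, at hg19 chrX:61729193-61729363 (plus strand), and the second lies on chromosome 20, at hg19 chr20:29817762-29817821 (plus strand), with each GGAAT in capitals.
alpha satellite length: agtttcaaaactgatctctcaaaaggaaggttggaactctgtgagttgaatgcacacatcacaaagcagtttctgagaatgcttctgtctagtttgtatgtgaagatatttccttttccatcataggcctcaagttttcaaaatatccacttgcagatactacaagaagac
GGAAT repeat: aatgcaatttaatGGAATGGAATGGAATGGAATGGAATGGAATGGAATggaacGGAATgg

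Nuclear sequence that resembles mitochondrial DNA was found more often outside H3K9me2 than within it. A summit window, with 100 bases on either side of the summit, aligned to the mitochondrial genome by blastn at 13 of 20 shared nuclear peaks without H3K9me2 (65.0%) and at 11 of 66 K451R-only ones (16.7%). With H3K9me2 the counts were 16 of 564 (2.84%) and 1 of 203 (0.493%), and 0 of 54 WT-only peaks aligned. This search was added after seeing the data. Reads of the mitochondrial genome and of such copies can be hard to tell apart, and their part in these peaks was not tested. The K451R list also had 7 peaks on the mitochondrial genome itself and the WT list 4.

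**Figure D4:**
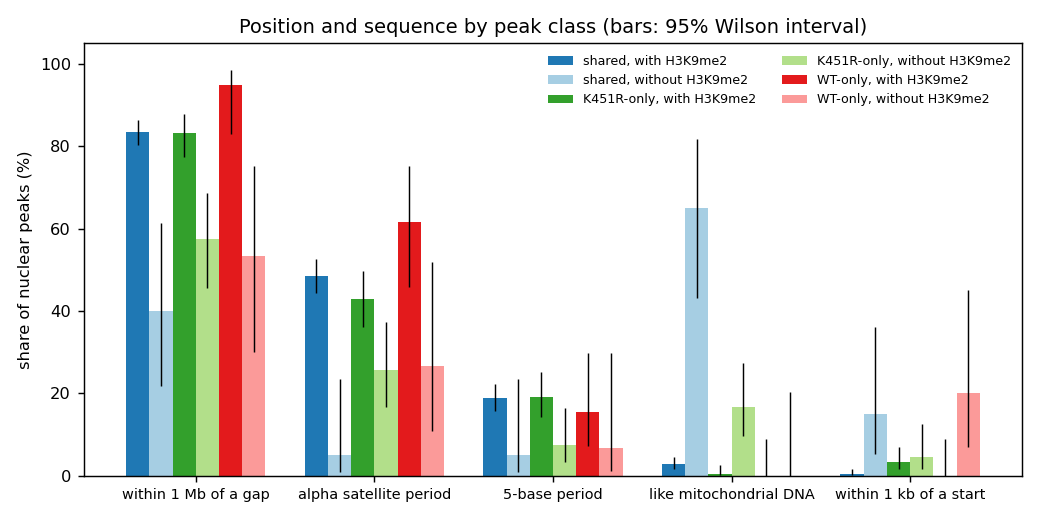
Share of nuclear peaks (vertical, percent) near an assembly gap, with a repeat period, like mitochondrial DNA or near a coding gene start, by peak class. Error bars are 95% Wilson intervals. The class with the largest share like mitochondrial DNA is shared peaks without H3K9me2, at 65.0%.

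Several of the strongest K451R-only peaks without H3K9me2 were of this kind. Of the 12 with the highest −log10 q, 7 aligned to mitochondrial DNA, 10 overlapped a peak of untagged EHMT1 and 9 a double mutant peak. Such overlaps were seen at 90.5% and 91.5% of all K451R peaks, and at 44.1% and 52.9% of K451R-only peaks without H3K9me2. Fold enrichment is pileup over local background, with the same constant added to both. The highest peak lay in an intron of PCBD2, a dehydratase of the tetrahydrobiopterin cycle (hg19 chr5:134263389-134263523), with 45 reads and a fold enrichment of 9.002. Its window was 97.5% identical to mitochondrial DNA over its whole length, and a WT peak lay 0.53 kb away. The next lay in an intron of RGPD2 (chr2:88124385-88124536, fold 15.5, 24 reads), 0.864 kb from its start, and was 97.2% identical over 141 bases. Untagged EHMT1 had a fold of 17.9 there and K450R one of 11.5. The peak in an intron of KIAA0825 (chr5:93905126-93905277) had a fold of 13.8, and the one in an intron of RSPO1, a secreted enhancer of Wnt signalling (chr1:38077320-38077453), a fold of 10.1. Places near AMPD3, KIF2B and FSHR completed the mitochondrial-like ones, with folds of 7.54, 9.85 and 9.85. The other 5 lay in 2 places near HGSNAT on chromosome 8, near CWH43 and at 2 places on chromosome 9. Of the 5, 3 had the long period, and the peak near CWH43 met the 5-base rule as well. The peak near FOXD4L5 (chr9:69998579-69998678) was in no other list and held no unique stretch of 51 bases.

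Shared peaks without H3K9me2 had 5 of 6 named places of mitochondrial type, among them places in introns of PDZRN4 and PCBD2, near KHDRBS2 and at a mitochondrial pseudogene on chromosome 1. The exception was EEF1A1, the translation elongation factor, where a wide peak covered the start (chr6:74229828-74230915) with 28 reads and a fold of 8.36 in the K451R list and 27 reads and a fold of 7.95 in the WT list. It was also called in the K450R and double mutant V5 lists, with folds of 9.49 and 8.45, and in neither the untagged EHMT1 list nor an H3K9me2 list. After leaving out mitochondrial-like and RE1 places, 3 shared peaks without H3K9me2 remained, at EEF1A1, in an intron of SIN3B, a scaffold of the SIN3 corepressor, and near SPIDR.

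The strongest shared peaks with H3K9me2 were in all 9 lists. At SENP5, a SUMO protease (chr3:196625596-196625819, intron), the fold was 41.1 for K451R and 45.2 for WT, and it ranged from 35.8 to 44.7 in the other lists. The V5, EHMT1 and H3K9me2 antibodies thus gave similar folds there. Binding or the mark cannot be told apart there from signal that does not depend on the antibody. Of all 588 shared K451R peaks, 579 also overlapped a peak of untagged EHMT1. The 4 strongest K451R-only peaks with H3K9me2 and the 6 strongest WT-only peaks lay in pericentromeric DNA within 1 Mb of a gap. All 10 lay outside coding genes. The WT-only peaks had another V5 peak at 0.1 to 7.8 kb in the K451R list.

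**Figure D5:**
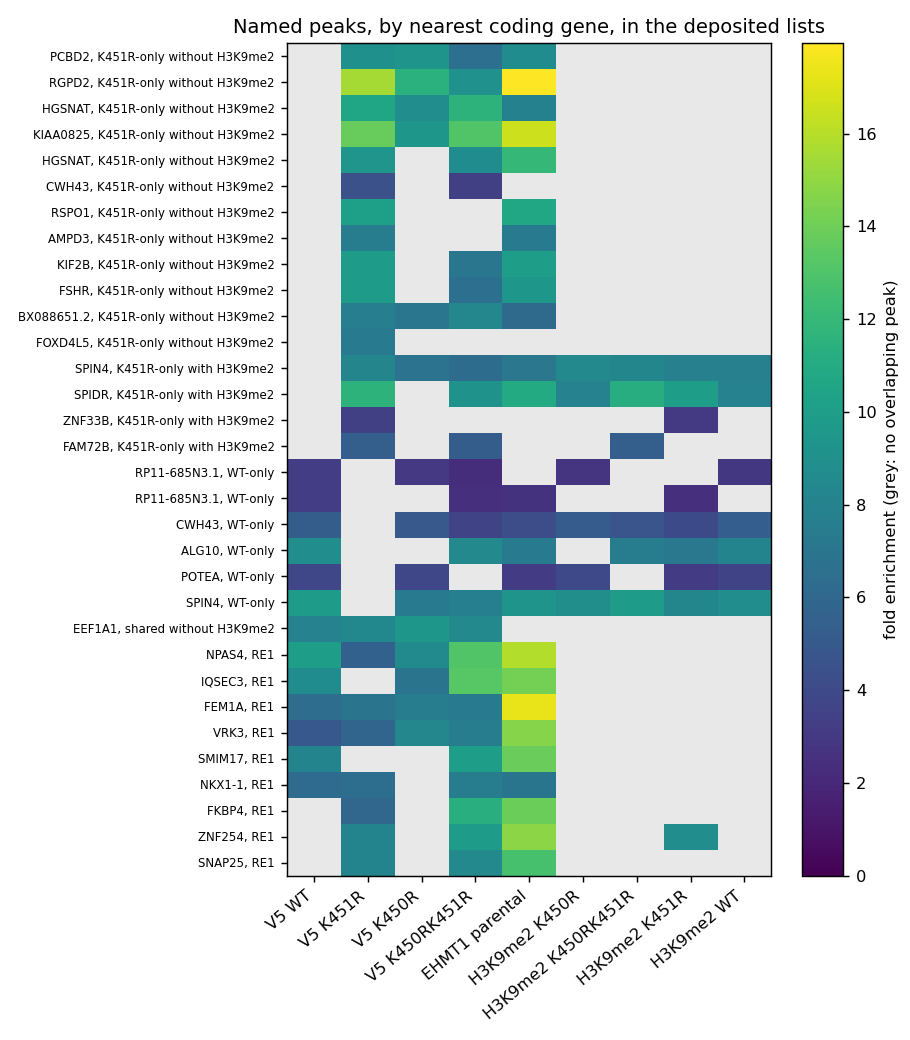
Fold enrichment (colour) of the overlapping peak in each of the 9 lists (columns) for the named K451R-only and WT-only peaks, the named shared peak at EEF1A1 and the RE1 places (lines, by nearest coding gene). Grey means no overlapping peak in that list. All 9 RE1 places have a peak of untagged EHMT1 and of the double mutant. Over all K451R peaks these shares are 90.5% and 91.5%, and over all WT peaks 95.1% and 96.3%.

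Places with an RE1 were few. The element was searched as its parts TTCAGCACC and GGACAGCGC, 2 bases apart, on both strands, with up to 3 mismatches over the 18 letters. Matches were found at 9 places, 4 of them shared, 3 K451R-only and 2 WT-only, and 1 of the 9 had an H3K9me2 peak. Among K451R-only peaks without H3K9me2 the share was 2 of 66 (3.03%, 0.835% to 10.4%), among shared ones 4 of 20 and among WT-only ones 2 of 15 (13.3%), while 0.0198% of all genome tiles as long as a summit window hold a match. The 6 places without H3K9me2 in the K451R list are printed in the orientation of the element, with both parts in capitals, to show how near each is to the searched letters. A match is a description and does not show that REST binds.
NKX1-1 (4.2 kb from the gene), hg19 chr4:1404426-1404465, plus strand, 0 mismatches: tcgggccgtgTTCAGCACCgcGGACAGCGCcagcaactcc
SNAP25, hg19 chr20:10200310-10200349, plus strand, 1 mismatch: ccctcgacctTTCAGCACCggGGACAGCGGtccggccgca
VRK3, hg19 chr19:50490529-50490568, minus strand, 1 mismatch: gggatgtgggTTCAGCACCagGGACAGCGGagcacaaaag
NPAS4, hg19 chr11:66189213-66189252, minus strand, 2 mismatches: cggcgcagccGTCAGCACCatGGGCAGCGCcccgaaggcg
MIR7-3HG, hg19 chr19:4769575-4769614, plus strand, 2 mismatches: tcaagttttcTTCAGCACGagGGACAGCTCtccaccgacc
IQSEC3P1, hg19 chr12:2861933-2861972, minus strand, 2 mismatches: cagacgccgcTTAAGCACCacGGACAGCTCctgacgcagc

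SNAP25 encodes a SNARE protein of synaptic vesicle fusion. Its peak was K451R-only, with 12 reads and a fold of 8.13, and it lay 0.499 kb from the start of the gene (chr20:10200215-10200383). The fold was 12.7 for untagged EHMT1 and 8.42 for the double mutant, and WT and K450R had no peak. NPAS4, an activity-dependent neuronal transcription factor, was shared. It had 11 reads (0.778 per M) and a fold of 5.58 in the K451R list. In the WT list it had 16 reads (1.81 per M) and a fold of 10.0. The ratio was 0.430 (0.180 to 0.987), an uncorrected interval that also holds the median of 0.793 over all pairs. The other shared RE1 places had 11, 11 and 12 reads in the K451R list, at NKX1-1, VRK3 and MIR7-3HG, and 9, 8 and 9 in the WT list. At MIR7-3HG the best match in the WT summit window was not the printed one. It lay at hg19 chr19:4769734-4769773 (plus strand), with 3 mismatches. The WT-only RE1 places lay at IQSEC3 (chr12:176297-176430), a guanine nucleotide exchange factor of inhibitory synapses, with 13 reads, and in ZIM2-AS1 on chromosome 19 with 12 reads. K451R-only RE1 peaks held 10 to 14 reads at K451R depth, against a lowest called pileup of 7 in both lists. The factor to WT depth is 0.626, so that these peaks lie near the WT limit once scaled.

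Promoters of coding genes were rarely occupied in either list. A summit within 1 kb of a start was found at 10 of 272 K451R-only peaks and 6 of 588 shared ones, a difference of 2.66 percentage points (0.609 to 5.66), and 2.52% of sequenced bases lie that near a start. The interval included 0 with equal numbers of peaks (1.91 points, -0.0447 to 6.49) and at a −log10 q of at least 10 (1.35 points, -0.163 to 4.33). Without H3K9me2 the counts were 3 of 66 K451R-only, 3 of 20 shared and 3 of 15 WT-only nuclear peaks. The K451R-only promoters without H3K9me2 were RGPD2, SNAP25 and WDR74, a ribosome biogenesis factor, and the WT-only ones were IQSEC3, PGK1, a glycolytic kinase, and CPLX2, a regulator of synaptic vesicle release. With H3K9me2, K451R-only promoter peaks lay at the mucin genes MUC6, MUC2 and MUC3A with 9, 10 and 16 reads, at 2 starts of CDC27, a subunit of the anaphase-promoting complex, with 25 and 13 reads, at FOXK2 with 12 and at SPATC1L, whose window held no unique stretch, with 11. These reads are at K451R depth and were not scaled to the WT read number. MUC2 also had a shared peak 0.285 kb from its start, with 13 reads in the K451R list and 9 in the WT list.

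A peak in the gene body or within 5 kb of a start was found for 93 of 20136 coding genes (0.462%) in the K451R list and 53 (0.263%) in the WT list. A K451R-only peak was found for 54 (0.268%), a WT-only peak for 9 (0.0447%) and a K451R-only peak without H3K9me2 for 28 (0.139%). Of 30 REST target genes, 2 had a K451R peak (NPAS4 and SNAP25) and 1 a WT peak (NPAS4). Of 20 synaptic and neuronal adhesion genes, 2 had a K451R peak (DLG2 and CNTNAP2) and 2 a WT peak (DLG2 and CPLX2). DLG2, a postsynaptic scaffold, was shared, with folds of 17.9 for K451R and 16.8 for WT. None of 16 androgen receptor and luminal prostate genes had a peak in either list. Of 18 genes of H3K9 methylation, EHMT1 itself was the 1 with peaks, and it was also the 1 of 7 genes named by the study. It had 3 intronic K451R peaks, of which 1 was shared, with 17 reads in the K451R list and 9 in the WT list. Of the other 2, 1 lay at chr9:140615617-140615783 with 17 reads, a fold of 7.38 and no H3K9me2. The last held 14 reads with 1 unique stretch of 51 bases in its window. It lay 0.065 kb from a WT peak and overlapped all 4 H3K9me2 lists. Numbers this small are described and not tested.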

How the data were processed

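Peak lists were analysed from ChIP-seq of V5-tagged EHMT1 in 2 LNCaP lines, with 2 samples and 1 list each, beside 7 further lists. Per the labels, the submitters' processing notes name BWA 0.7.9a, SAMtools 1.2, FastQC 0.11.9 and MACS2 2.1.0 on hg19. The authors deposited for each peak a fold enrichment (a ratio), −log10 p, −log10 q (used as a score to rank peaks) and a summit offset. How the replicates were combined is not given in the sources used here.

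Pileup and background of each peak were solved from fold enrichment and −log10 p, and all peaks were solved. The solver and the overlap rule were tested on simulated data. Reads were estimated from the genome-wide background with a read extension of 100 bases and a genome of 2.7 Gb, both assumed. Positions and genes came from GENCODE 44 on hg19. Wilson, Newcombe and exact binomial intervals are at 95%. Named peaks were the highest by −log10 q on chromosomes 1 to 22 and X, namely 12 K451R-only without and 4 with H3K9me2, 6 WT-only, 6 shared without and 3 with H3K9me2, plus members of the gene lists. A named shared place is not reported here. Members and lists were chosen with earlier results of these data known. Alternatives were cutoffs, overlap rules, equal list lengths, unique windows, H3K9me2 rules, mismatches and scaling. Mitochondrial matches were searched with blastn 2.17.0 (e-value 1e-10), and the other steps ran in Python 3.11.15 with numba 0.67.0, pandas 2.3.3, numpy 2.4.6 and scipy 1.17.1.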

Additional observations from a re-analysis of the deposited data

How the results depend on the processing

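No paired analysis was possible because the replicates of a line shared a single list of peaks, and for the same reason no replicate could be left out. Of 100 planned values, 81 stayed within the interval, or within 1.5 times the count, of the reported ones. No difference between shares changed direction, and direction was not recorded for the other results. With equal numbers of peaks, 81.4% of K451R and 83.3% of WT peaks were shared, 121 K451R-only and 109 WT-only peaks were left, 19 of the former had no H3K9me2, the H3K9me2 difference was 13.6 points, the RE1 share 0% and 100% of K451R-only peaks reached the WT limit. At −log10 q of at least 10 the difference was 9.16 points, 20 K451R-only peaks had no H3K9me2, the RE1 share was 0%, 79.9% reached the WT limit and the median ratio was 0.776. At a fold of at least 5, 87.0% of WT peaks were shared. With reciprocal overlap of at least 50%, 64.1% of K451R and 84.5% of WT peaks were shared and 101 were WT-only. With H3K9me2 counted within 1 kb the difference was 15.8 points. Scaled by the shared pileups, 98.2% reached the WT limit. Chosen after seeing the data, a limit on −log10 p gave 76.1%, H3K9me2 lists of equal length gave a difference of 29.9 points, and a WT peak within 1 kb made 76.2% of K451R and 94.0% of WT peaks shared. Apart from list length and overlap rules, which set these counts by construction, the cause was not tested.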
